A study of Mus musculus with 4 samples.

Results

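*Tbx3* was followed through RNA-seq libraries of 46C mESCs with and without knockdown of the homeobox gene *Rhox6*. It is 1 of the 920 genes in the table of differentially expressed genes that was analysed, and it was taken by its gene name. The tested cells were infected with *Rhox6* shRNA lentivirus and the control cells with *scramble* lentivirus, and all were kept in serum-containing medium for 24 h before RNA was extracted. Each group had 2 libraries. 46C is a mouse embryonic stem cell line that carries a fluorescent reporter at the *Sox1* locus, so every library, control libraries included, comes from 1 line. The study's general methods select infected cells with antibiotics. The labels do not state whether LIF was in that medium, which *Rhox6* hairpin each library carried, or whether replicates came from separate cultures. The spread between replicates and the p-values that rest on it may therefore be technical.

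*Tbx3* encodes a transcription factor of the T-box family, which binds DNA through a conserved T-box domain. In mESCs it belongs to the naive pluripotency network. LIF signals reach it in part through PI3K and Akt, while the JAK and STAT3 branch acts on *Klf4*, and forced expression of *Tbx3* can replace LIF in keeping mESCs undifferentiated. Outside the naive state, *Tbx3* has also been tied to primitive endoderm through *Gata6*. It represses *Dnmt3b*, a de novo DNA methyltransferase gene, in mESCs. The study asked whether Rhox6 acts on *Tbx3* and pursued it with qRT-PCR, mESCs with induced or deleted *Rhox6*, *Tbx3* shRNAs, CUT&Tag, ChIP and promoter reporters. By its account, *Tbx3* RNA rose in mESCs with deleted *Rhox6*, and *Tbx3* RNA and protein fell when *Rhox6* was induced. Knockdown of *Tbx3* weakened the self-renewal seen with *Rhox6* shRNA. The study proposes that Rhox6 binds the *Tbx3* promoter and represses the gene directly. None of these measurements were analysed here.

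*Tbx3* (ENSMUSG00000018604) is annotated in GENCODE M21 (GRCm38) on the + strand of chromosome 5, bases 119670669 to 119684724, with 6 transcripts, 3 of them coding. The coding transcripts differ in an alternative exon of 60 bases on chromosome 5 from 119675243 to 119675302. It is exon 3 of 8 in the transcript Tbx3-201, lies in the coding sequence, and adds 20 amino acids without changing the reading frame. The table gives 1 value per gene, so every *Tbx3* level below pools transcripts with and without this exon. The junction is shown as the place where these transcripts part, with 30 coding bases on either side, and capitals mark the alternative exon.
Tbx3-201: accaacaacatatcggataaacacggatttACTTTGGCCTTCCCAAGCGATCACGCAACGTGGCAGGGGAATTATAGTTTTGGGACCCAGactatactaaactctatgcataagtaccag
Tbx3-203: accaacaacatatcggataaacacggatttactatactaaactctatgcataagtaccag

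*Tbx3* was about 3 times as high in *Rhox6* shRNA mESCs as in *scramble* mESCs. Its expression level was 97.12 and 90.09 in the *Rhox6* shRNA libraries, against 31.36 and 28.12 in the *scramble* libraries. The level is a normalized value whose unit the authors do not name, and TPM and FPKM are both possible. Both *Rhox6* shRNA libraries lay far above both *scramble* libraries, and the gap of 58.7 between the closest pair was larger than either group's own range. The mean level was 93.6 ± 4.97 in *Rhox6* shRNA cells and 29.7 ± 2.29 in *scramble* cells (SD, n = 2 each), a ratio of 3.15. Depending on which library is set against which, the ratio ran from 2.87 for *Rhox6* shRNA replicate 2 over *scramble* replicate 1 to 3.45 for *Rhox6* shRNA replicate 1 over *scramble* replicate 2. As a difference of log2(level + 1), *Tbx3* was 1.62 higher (standard error 0.083). This standard error comes from a limma fit that borrows variance from all genes of the table. The pooled SD between the replicates of *Tbx3* itself was 0.093 on that scale. The authors had chosen the genes of the table for their difference between these same libraries, and *Tbx3* was picked from them with this difference known, so its values are a description and no test of them is given.

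**Figure D1:**
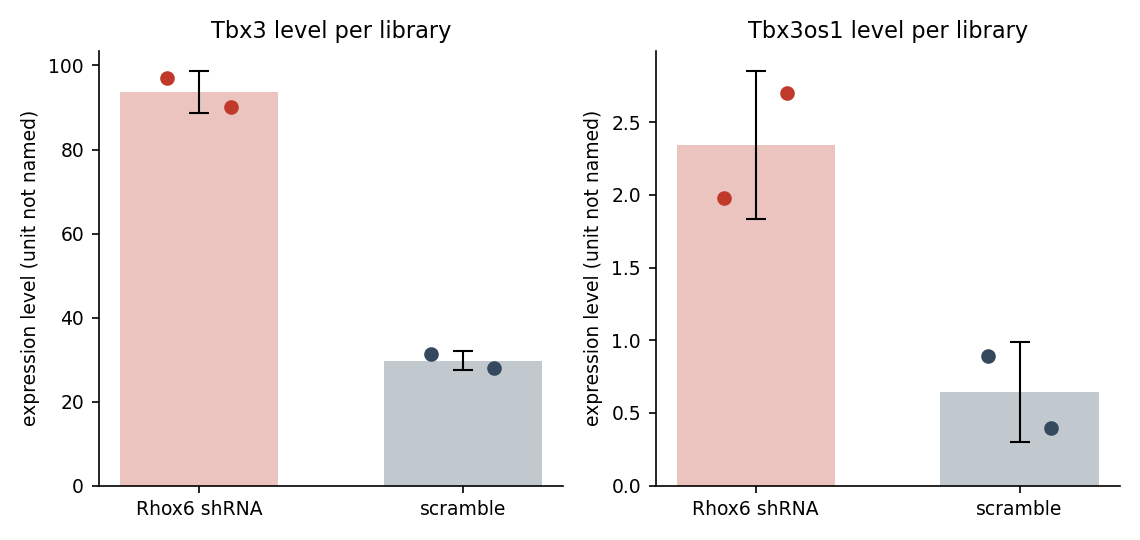
Expression level of *Tbx3* (left) and of its antisense gene *Tbx3os1* (right) in each library, in the unnamed unit of the deposited table. Points are libraries, with replicate 1 on the left of each pair, bars are means and error lines are SD (n = 2 each), and for both genes the *Rhox6* shRNA libraries lie above the *scramble* libraries.

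The spread between replicates of *Tbx3* was set against that of the other genes in the table. Replicate 1 was above replicate 2 by a factor of 1.08 among the *Rhox6* shRNA libraries and of 1.12 among the *scramble* libraries. On the log2(level + 1) scale, the replicates of *Tbx3* differed by 0.11 in *Rhox6* shRNA cells, against a median of 0.13 over all 920 genes, and by 0.15 in *scramble* cells, against a median of 0.14. Among the 98 genes with a mean level of at least 10 in both groups the median was 0.11 in *Rhox6* shRNA cells and 0.09 in *scramble* cells, so that the *scramble* replicates of *Tbx3* lay farther apart than those of most genes at such levels. In relative terms the SD of *Tbx3* was 5.31% of the mean in *Rhox6* shRNA cells and 7.70% in *scramble* cells. Without 1 library at a time, its log2 difference ranged between 1.55 and 1.70.

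All 920 genes of the table are differentially expressed by the authors' own call, so *Tbx3* can be placed among genes that also differ, but not among the genes that do not. Both *Rhox6* shRNA libraries lay above both *scramble* libraries for 498 genes, or 54.1%, *Tbx3* among them, and below both for 407 genes, or 44.2%. Read on these libraries, 51 genes had a larger log2 difference than *Tbx3* and 208 had a larger ratio of mean levels. Most of the larger ratios came from genes with low levels. Of the 198 genes with a mean level of at least 5 in both groups, 128 were higher in *Rhox6* shRNA cells, with a median ratio of 2.39, and 17 had a larger ratio than *Tbx3*. With a mean level of at least 10 in both groups, 98 genes were left, and 5 had a larger ratio. These were *Eprn*, *Gm48494*, *Kbtbd11*, *Aard* and *Sfrp1*, named here because of this result.
The size of the difference depends on how the libraries are put on 1 scale. The levels were used as deposited. With the summed level of the listed genes made equal in every library, the levels of *Rhox6* shRNA cells were scaled by −0.31 in log2 relative to *scramble* cells, and the log2(level + 1) difference of *Tbx3* became 1.32. With the median log2 ratio of the listed genes set to 0, that scaling was −0.88 and the difference of *Tbx3* became 0.76. On the log2(level + 1) scale, genes with low levels moved by less. Both scalings use only genes chosen for their difference. *Tbx3* remained higher in *Rhox6* shRNA cells under either.

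**Figure D2:**
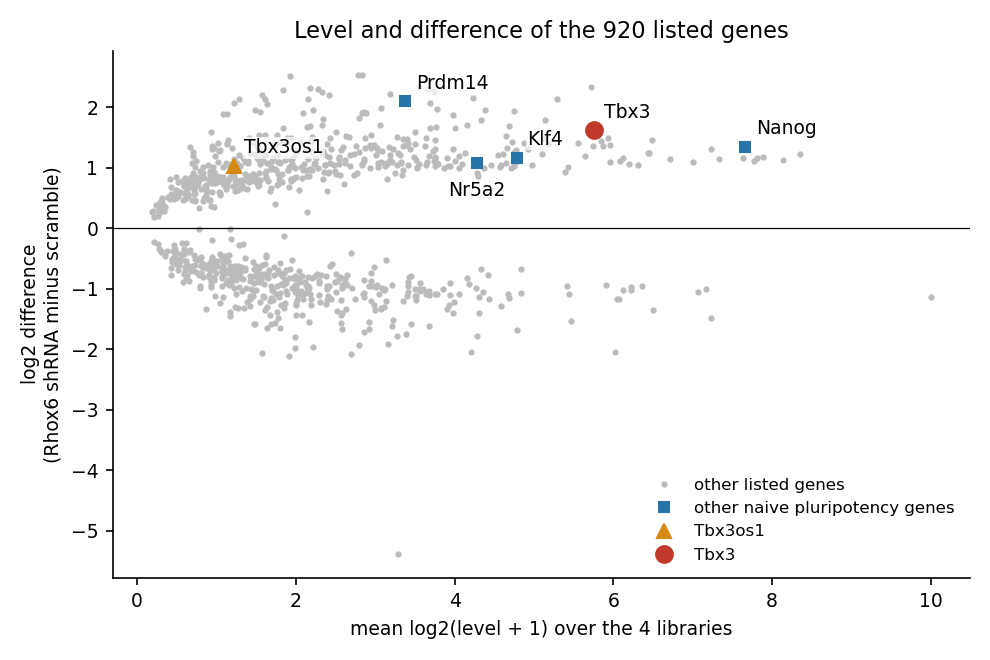
Each point is 1 of the 920 listed genes, with the mean log2(level + 1) over the 4 libraries on the x axis and the log2 difference, *Rhox6* shRNA minus *scramble*, on the y axis. *Tbx3*, at 1.62, lies among the genes with high levels and above most of those that are higher, and few genes lie near 0 because the authors had selected the table for its differences.

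The antisense gene of *Tbx3*, *Tbx3os1* (ENSMUSG00000087516), rose as well, with the limit that it shares bases with *Tbx3*. It is annotated on the − strand of chromosome 5 from 119570130 to 119671365, and its 5′ end, at the higher coordinate, lies within *Tbx3*. Its level was 1.98 and 2.70 in the *Rhox6* shRNA libraries, against 0.89 and 0.40 in the *scramble* libraries, so the groups did not overlap, although the replicates of each lay far apart. The ratio of the mean levels was 3.63, and the log2(level + 1) difference was 1.03 (standard error 0.20, limma adjusted p = 0.00525). By the same limma test, which was fitted over all genes of the table and counts a gene at an adjusted p under 0.05, 889 of the 920 genes (96.6%) passed, 494 (53.7%) as higher in *Rhox6* shRNA cells and 395 (42.9%) as lower. These p-values describe genes that had already been selected on the same libraries and are not independent evidence. With the median log2 ratio set to 0, the counts were 271 higher and 414 lower, and the difference of *Tbx3os1* was 0.55 (limma adjusted p = 0.0537).
Of the 6 annotated transcripts of *Tbx3os1*, 1 has an exon that lies over an exon of *Tbx3*. The overlap is 115 bases long, from 119671251 to 119671365, within the annotated 5′ UTR of all 3 coding *Tbx3* transcripts. It makes up 1.74% of the annotated exonic bases of *Tbx3* and 3.63% of those of *Tbx3os1*. Whether the counting used strand is not given in the sources used here. Without strand, reads from the shared bases cannot be told apart. Since the level of *Tbx3* is far above that of *Tbx3os1* in every library, *Tbx3* reads over the shared bases could make up much of the *Tbx3os1* signal, and both its level and its difference are uncertain. The levels of the pair did not keep a fixed ratio. The listed level of *Tbx3* over that of *Tbx3os1* was 49.1 and 33.4 in the *Rhox6* shRNA libraries, against 35.2 and 70.3 in the *scramble* libraries. Whether the levels are corrected for gene length is not known, so this ratio was read between libraries and not between genes.

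**Figure D3:**
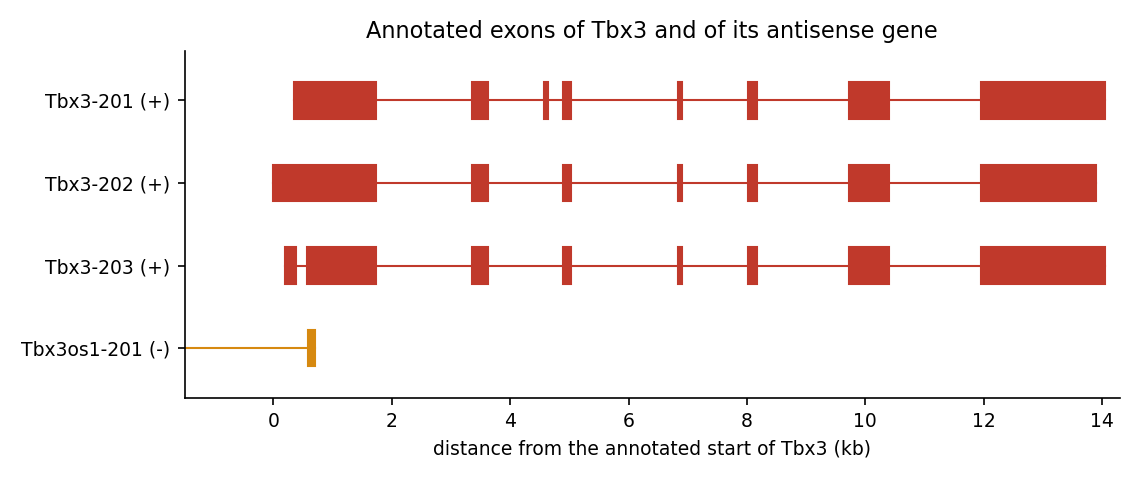
Annotated exons (boxes) of the 3 coding *Tbx3* transcripts and of the *Tbx3os1* transcript that overlaps them, by distance from the annotated start of *Tbx3* in kb, with the strand in brackets. The narrow box that Tbx3-201 alone has is the alternative exon of 60 bases, and the *Tbx3os1* exon, which lies wholly over *Tbx3* exon bases near the 5′ end, is 115 bases long. The line to the left edge leads to further *Tbx3os1* exons that are not drawn.

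The genes around *Tbx3* were looked up by their annotated position. Within 2 Mb on either side GENCODE M21 annotates 108 other genes, 48 of them protein coding, and 4 were listed. Besides *Tbx3os1* these were *Oas3*, which encodes an antiviral oligoadenylate synthetase, at 1068 kb from *Tbx3*, and the overlapping pair *Adam1a* and *Gm42878* at 1834 kb. *Oas3* was at 1.55 and 1.74 in the *Rhox6* shRNA libraries, against 2.50 and 2.67 in the *scramble* libraries. It fell by 0.44 on the log2(level + 1) scale (limma adjusted p = 0.0192), and this call was lost whichever of the 4 libraries was left out, with differences of −0.49 to −0.39 and limma adjusted p-values of 0.0514 to 0.0869. *Adam1a* was at 1.78 and 1.47 in the *Rhox6* shRNA libraries, against 0.54 and 0.54 in the *scramble* libraries. *Tbx5*, the T-box gene next to *Tbx3*, was not analysed here.
Of 18 symbols for T-box genes, *Tbx3* and *Tbx20* were listed. *Tbx20*, a gene of heart development, was at 1.27 and 0.56 in the *Rhox6* shRNA libraries, against 0.02 and 0.07 in the *scramble* libraries. On the log2(level + 1) scale it rose by 0.85 (standard error 0.19, limma adjusted p = 0.00784). Without *scramble* replicate 1 or 2 the difference of *Tbx20* was 0.81 (limma adjusted p = 0.0767) or 0.88 (limma adjusted p = 0.0654) and did not pass.

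Among the naive pluripotency genes, *Tbx3* had the second largest log2 difference. Of 16 such genes, 5 were listed, *Tbx3* included. For all 5, both *Rhox6* shRNA libraries lay above both *scramble* libraries, as they did for 498 of the 920 genes (54.1%). The median log2 difference of the 5 was 1.35. Over all 920 genes, the median size of the log2 difference, whether higher or lower, was 0.98. *Prdm14*, which represses differentiation and DNA methylation genes, was at 19.77 and 21.26 in the *Rhox6* shRNA libraries, against 3.70 and 4.39 in the *scramble* libraries. Its log2 difference of 2.09 (standard error 0.12) was above the 1.62 of *Tbx3*. The order then ran to the homeobox gene *Nanog* at 1.35 (standard error 0.048), to *Klf4*, the LIF and STAT3 target, at 1.17 (standard error 0.085) and to the nuclear receptor gene *Nr5a2* at 1.08 (standard error 0.086). The differences of *Klf4* and *Nr5a2* lay within a standard error of each other. By the study's account, qRT-PCR of genes drawn from the sequencing did not bear out *Nanog*. In mESCs kept without LIF, its qRT-PCR found *Nanog* higher with *Rhox6* shRNA. None of the 5 changed direction under either scaling, but with the median log2 ratio set to 0 the difference of *Nr5a2* was 0.25 (limma adjusted p = 0.0507). Of 10 core pluripotency genes *Nanog* was listed, and of 8 markers of mESCs *Nanog* and *Klf4*, so the labelled cell type rests here on these genes.
The study drew 17 genes of pluripotency signaling from its calls on these libraries, *Tbx3* among them. It reports that qRT-PCR bore out most of them, but not *Nanog*, *Fzd1*, *Meis1*, *Id4* and *Fzd6*. Of the 16 others, *Rhox6* shRNA cells had 13 at higher and 3 at lower levels. Over all 920 genes, 53.7% passed as higher and 42.9% as lower. Since the study drew the 16 genes from these libraries, their counts are no independent evidence of direction. With the median log2 ratio set to 0, *Fzd6* turned to −0.10 (limma adjusted p = 0.584), and *Bmi1* at 0.17 (limma adjusted p = 0.229), *Fzd1* at 0.26 (limma adjusted p = 0.0885) and *Wnt6* at 0.40 (limma adjusted p = 0.104) no longer passed. *Fzd6* also did not pass with equal sums (0.36, limma adjusted p = 0.0683), without either *scramble* library or without *Rhox6* shRNA replicate 1 (limma adjusted p-values of 0.0546 to 0.0775). *Mapk13*, a p38 kinase gene, had a log2(level + 1) difference of −1.62 (standard error 0.18), about as large in size as that of *Tbx3*. Which of the genes has the largest difference depends on the scale. With a pseudocount of 0.1, *Fgf2* was at 2.68, *Pax6* at 2.51, *Meis1* at 2.24, *Mapk13* at −1.81 and *Id4* at 1.75, all larger in size than *Tbx3* at 1.65. *Meis1*, *Pax6*, *Id4*, *Fgf2* and *Fzd1* had larger ratios of mean levels than *Tbx3*, from mean levels below 1 in *scramble* cells. *Lefty1*, a Nodal antagonist, was at 336 and 304 in the *Rhox6* shRNA libraries, against 147 and 149 in the *scramble* libraries. The study reports both *Lefty1* and *Tbx3* as higher in mESCs with deleted *Rhox6*. It then set *Lefty1* aside, because forced *Lefty1* expression did not keep mESCs undifferentiated without LIF.

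Of 15 symbols for genes that *Tbx3* is known to act on, 3 were listed. *Nanog* was higher, as given above. *Dnmt3b* was at 92.76 and 92.01 in the *Rhox6* shRNA libraries, against 182.33 and 202.34 in the *scramble* libraries, a log2(level + 1) difference of −1.05 with a standard error of 0.066 (limma adjusted p = 0.000233). *Gata6*, which specifies primitive endoderm, was at 0.91 and 0.83 in the *Rhox6* shRNA libraries, against 2.03 and 2.61 in the *scramble* libraries. Its log2(level + 1) difference was −0.82 with a standard error of 0.14 (limma adjusted p = 0.00334). For *Dnmt3b* and *Gata6*, both *Rhox6* shRNA libraries lay below both *scramble* libraries, as they did for 407 of the 920 genes (44.2%). A link of either fall to *Tbx3* was not tested.
Genes of LIF and FGF signaling were taken by branch. Over all 920 genes, 53.7% passed as higher and 42.9% as lower in *Rhox6* shRNA cells. Of 18 genes of the PI3K and Akt branch, none was listed, and their levels were not analysed here. Of 9 genes of the LIF receptor and STAT3 branch, 2 were listed and both fell. *Klf4*, on which this branch acts, was counted with the naive pluripotency genes and rose by 1.17 on the log2(level + 1) scale. *Socs3*, the feedback inhibitor of STAT3, was at 2.75 and 3.12 in the *Rhox6* shRNA libraries, against 7.14 and 7.19 in the *scramble* libraries. *Junb*, an immediate early gene, was at 5.98 and 7.19 in the *Rhox6* shRNA libraries, against 16.42 and 15.97 in the *scramble* libraries. The FGF and ERK list of 23 genes had 4 in the table, of which 3 fell while *Fgf2* rose. *Ier3*, an early response gene, fell by 1.79, the ERK phosphatase gene *Dusp4* by 0.91 and the receptor gene *Fgfr3* by 0.66 on the log2(level + 1) scale. *Fgf2* was at 0.86 and 2.26 in the *Rhox6* shRNA libraries, against 0.09 and 0.19 in the *scramble* libraries. Without *scramble* replicate 1 or 2, *Fgf2* (limma adjusted p = 0.101 or 0.0797) and *Fgfr3* (limma adjusted p = 0.0643 or 0.0559) no longer passed.

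**Figure D4:**
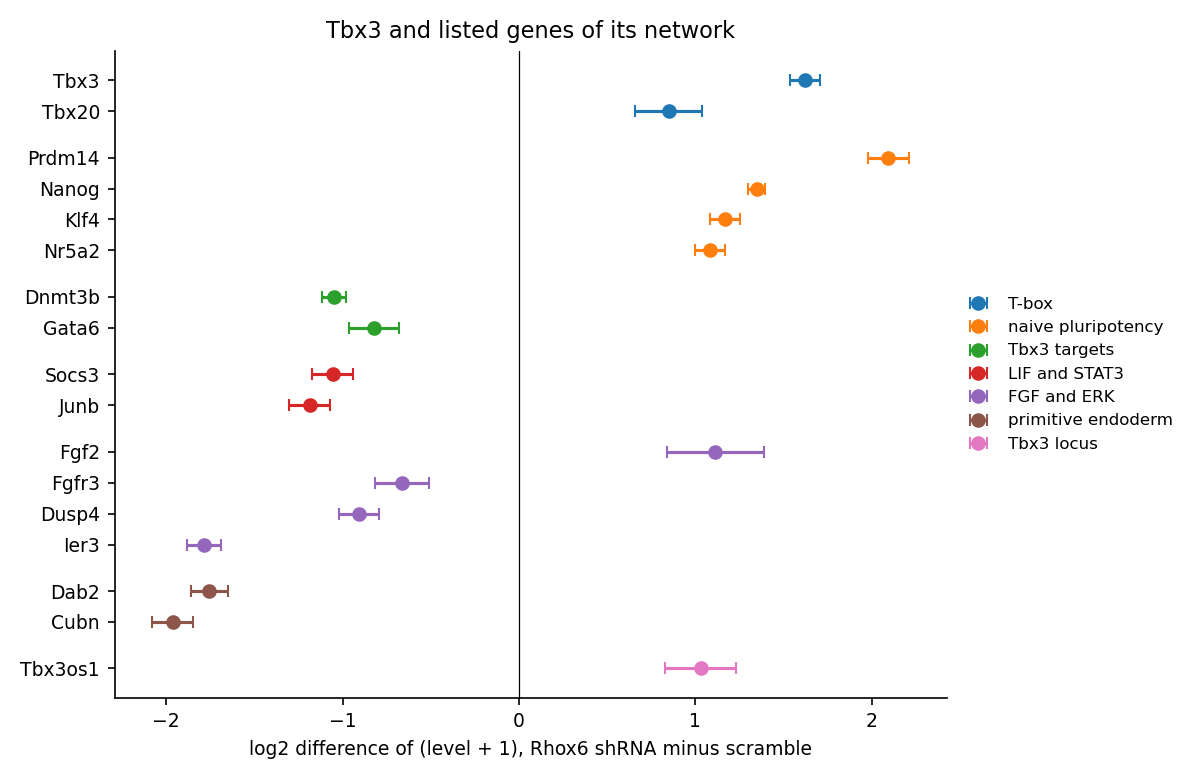
Log2(level + 1) difference, *Rhox6* shRNA minus *scramble*, of *Tbx3* and of listed genes of its network, with the standard error of the limma fit as error lines. *Tbx3* (1.62) and the naive pluripotency genes lie to the right of 0, and *Dnmt3b*, *Gata6*, *Socs3*, *Junb* and the primitive endoderm genes *Dab2* and *Cubn* lie to the left. *Klf4*, a target of LIF and STAT3, is drawn with the naive pluripotency genes.

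Markers of other cell types differed between the same libraries, in both directions, and most symbols of each marker list were not analysed here. Over all 920 genes, which the authors had selected for differing, 53.7% passed as higher and 42.9% as lower in *Rhox6* shRNA cells. The small counts below are to be read beside these shares. In bulk RNA, a change in the share of such cells and a change in the RNA per cell cannot be told apart. Of 9 primitive endoderm markers, *Gata6*, *Dab2* and *Cubn* were listed and all 3 fell. Their summed level was 6.64 and 7.21 in the *Rhox6* shRNA libraries, against 27.9 and 29.6 in the *scramble* libraries. Most of this sum was *Dab2*, at 4.43 and 4.99 against 17.71 and 18.82. Of 5 neuroectoderm markers, *Sox1*, *Pax6* and *Ncam1* rose, with a summed level of 12.1 and 13.2 in the *Rhox6* shRNA libraries, against 3.28 and 4.01 in the *scramble* libraries. Most of this sum was *Ncam1*, at 8.52 and 8.72 against 2.59 and 2.97. Of 6 mesendoderm markers, *Evx1* and *Kdr* rose, with a summed level of 1.01 and 1.27 in the *Rhox6* shRNA libraries, against 0.13 and 0.25 in the *scramble* libraries. Without *scramble* replicate 1, *Kdr* no longer passed (limma adjusted p = 0.0589). Of 6 trophoblast markers, the keratin genes *Krt18* and *Krt19* fell and *Gata3* rose, with a summed level of 13.2 and 10.9 in the *Rhox6* shRNA libraries, against 29.8 and 31.3 in the *scramble* libraries, and with *Gata3* listed at 0 in *scramble* replicate 2. No fibroblast marker of 6 was listed. The part of these cell types in the difference of *Tbx3* was not tested.

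The genes whose pattern was nearest to that of *Tbx3* were *Gm14411*, *Sfrp1*, *Zc3hav1*, *Mmrn2*, *Tgfbi*, *Gpc4*, *Dusp27* and *H2-M5*. Likeness was measured as the Euclidean distance between log2(level + 1) values over the 4 libraries, each gene centred on its own mean, among the genes with a mean level of at least 1. The distances of these 8 genes were 0.075 to 0.154, against a median of 0.585 over the genes that were higher in *Rhox6* shRNA cells. *Sfrp1*, which encodes a secreted Wnt antagonist, was at 44.99 and 45.34 in the *Rhox6* shRNA libraries, against 14.03 and 12.49 in the *scramble* libraries. *Tgfbi*, a matrix protein gene induced by TGF-β, was at 12.16 and 12.07 in the *Rhox6* shRNA libraries, against 3.59 and 3.42 in the *scramble* libraries. *Gpc4*, which encodes a cell surface heparan sulfate proteoglycan, was at 22.25 and 21.50 in the *Rhox6* shRNA libraries, against 6.16 and 6.34 in the *scramble* libraries. These genes share the step between the groups with *Tbx3*, and a step of this size is what the measure selects.
*H2-M5*, a nonclassical MHC class I gene, was at 93.56 and 85.78 in the *Rhox6* shRNA libraries, against 28.56 and 29.78 in the *scramble* libraries. *Zc3hav1*, which encodes an antiviral zinc finger protein, was at 8.46 and 7.66 in the *Rhox6* shRNA libraries, against 1.82 and 1.74 in the *scramble* libraries. The choice of measure decides which genes are named. With a pseudocount of 0.1 in place of 1, 3 of the 8 were still among the nearest, namely *Sfrp1*, *Tgfbi* and *Dusp27*. With the Pearson correlation over the 4 libraries, 0 of the 8 were, since 186 genes had a correlation with *Tbx3* of at least 0.99 over these 4 points, which are 2 groups of 2.

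**Figure D5:**
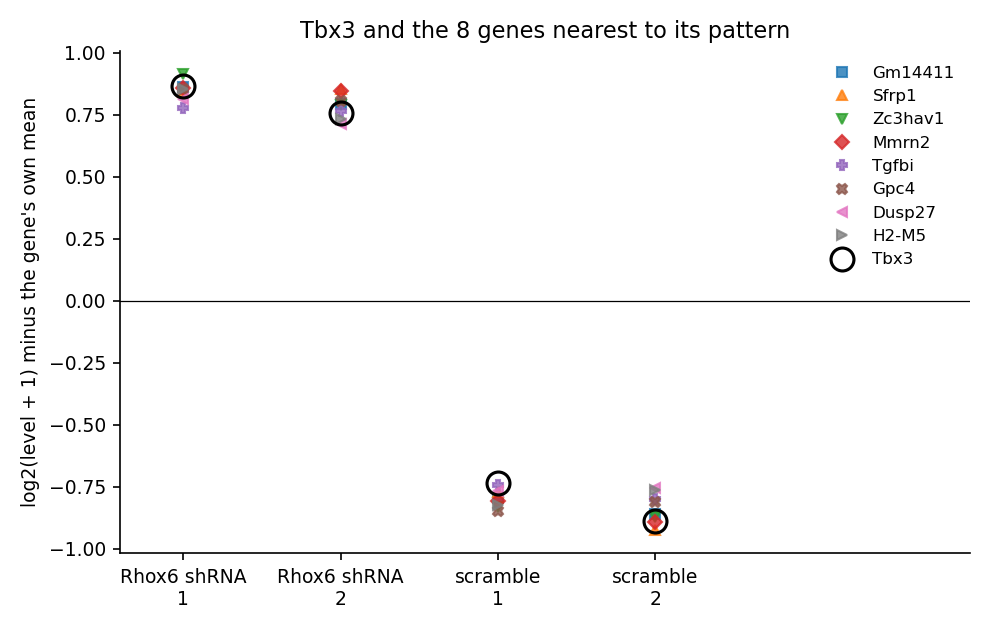
Log2(level + 1) of *Tbx3* (open circles) and of the 8 genes nearest to its pattern, minus each gene's own mean, in the *Rhox6* shRNA and *scramble* libraries. All 9 genes lie well above 0 in both *Rhox6* shRNA libraries and well below 0 in both *scramble* libraries.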

How the data were processed

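The authors sequenced RNA of 46C mESCs and deposited a table of 920 genes that they had called as differentially expressed, with a normalized signal (the expression level, 2 decimals, unit not named) for each of 4 libraries. No counts or depth accompany the signal, so no interval from depth is given. Bowtie 0.12.2 and mm9 appear in the submitters' processing notes, without their role. Counter, annotation and normalization: not given in the sources used here. The authors' columns of group means, fold changes, log2 fold changes, p-values and calls were not used.

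Libraries were grouped by their titles. Levels were taken to log2(level + 1), which understates changes of low genes, and fitted by limma (version 3.58.1, R 4.3.3) using a variance trend and Benjamini-Hochberg adjustment over the 920 genes, without a filter. The fit was also run on simulated data in which most genes did not differ. The genes of the table had all been selected for differing, so that run does not vouch for the p-values here. *Tbx3* received no test. *Rhox6* was not analysed here, so the labels could not be checked by the targeted gene. With 2 libraries a group, the smallest two-sided p of an exact permutation test is 0.333.

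Coordinates and transcript sequences are from GENCODE M21 (GRCm38), in which 919 of the 920 gene IDs were found. The *Tbx3* promoter was not analysed here. Named genes are *Tbx3*, the listed members of the gene lists (markers included), the 8 genes nearest to *Tbx3* in pattern and the listed genes within 2 Mb. *Eprn*, *Gm48494*, *Kbtbd11* and *Aard* were named after their values were seen. *Tbx3*, the lists and the rule were chosen with earlier results of these data known. Alternatives were other pseudocounts, a filter on low levels, 2 scalings, limma without a trend, a replicate block and leaving out each library.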

Additional observations from a re-analysis of the deposited data

How the results depend on the processing

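The log2 difference of *Tbx3* was positive under all 11 alternatives. From 1.62, it moved to 1.51 with a pseudocount of 5, to 1.32 with equal sums of the listed genes and to 0.76 with the median log2 ratio of the listed genes set to 0. Leaving out 1 library gave 1.55 to 1.70. A replicate block left it at 1.62 (standard error 0.094, against 0.083), and the counts with the block were 494 higher and 402 lower, against 494 and 395 without it. The titles give same-numbered libraries a common number and do not state whether they were paired. The correlation over genes of same-numbered deviations was −0.04, which cannot decide this, since pairing need not leave a shared deviation. The count of higher genes moved beyond 1.5 times only with the median set to 0 (271, against 494), and leaving out 1 library gave 456 to 477 higher and 353 to 377 lower genes. Of the 8 nearest genes, 3 were shared with a pseudocount of 0.1 and 0 with the Pearson correlation. For the 46 other named genes, 476 of 499 combinations of gene and alternative kept direction and side of the threshold, and *Fzd6* reversed to −0.10 with the median set to 0. The planned counts of promoter motifs, and their alternative, were not run because no promoter of *Tbx3* was analysed. The unnamed unit and unknown depth limit how far levels of different genes can be compared, and genes outside the table were not analysed here.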
